A study of Mus musculus with 30 samples.

Results

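The 35 genes described here are genes of mature oligodendrocytes that do not code for structural proteins of myelin. They were taken as a named list of lipid enzymes, other enzymes, junction and surface genes, transcription factors and cytoskeletal genes, and every one was found by its symbol, out of 53278 gene rows for the subventricular zone (SVZ) and 50508 for the striatum. No measured value entered the list, but it was drawn up with earlier results of these data known. The question was which of these groups of genes are lower after ablation of neural precursor cells, and whether all of them change by one common factor. In striatum 34 of the 35 genes were below the control level, at a median of 64.1% of it, as were 7630 of all 15419 genes tested. Of the 35, 4 genes, Car2, Zdhhc9, Lpar1 and Ermn, fell at an adjusted p under 0.05, against 0.182% of all genes tested. In the SVZ 30 of the 35 were below the control level, as were 8500 of all 16375 genes tested. None of the 35 passed that threshold there, and only 0.00611% of all genes did. In striatum, ganciclovir against PBS in mice without the transgene used for ablation also had a median log2 fold change of -0.50. That of ablated against control mice was -0.64. The part of the response to ganciclovir found only with the transgene had a median of -0.10.

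Both tissues were taken from each of 15 adult C57Bl/6 mice, and each piece gave 1 RNA library. The ablated group was 5 NestinTK+ GCV mice (A1 to A5), and the 10 control mice were 3 NestinTK- GCV (G1 to G3), 3 NestinTK- PBS (P1 to P3) and 4 NestinTK+ PBS (T1 to T4) mice, numbered in the order of their entries. NestinTK+ mice carry a viral thymidine kinase driven by the second-intron enhancer of rat Nestin, which acts in neural precursors, NestinTK- mice lack it, and every mouse received ganciclovir (GCV) or PBS from a minipump under the skin for 4 weeks. GCV kills dividing cells that hold the kinase, so that only NestinTK+ GCV mice should lose precursors, and mature oligodendrocytes, which do not divide, are not a direct target. In each tissue every GCV library carries a lower library number than every PBS library, and the labels do not say what this number stands for, so treatment and library numbering cannot be told apart. By mouse number, P1 to P3, G1 and T3 are of a different series from A1 to A5, G2, G3, T1, T2 and T4. What the series stands for is not labelled. Contrasts that use the NestinTK- PBS mice, the interaction among them, cannot be told apart from it. The mouse is the replicate, and p-values set the difference between groups against the spread between mice.

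Oligodendrocytes wrap axons in myelin, a membrane rich in galactolipids and cholesterol, and couple to each other and to astrocytes through connexins. SOX10 keeps cells in the lineage and, with MYRF, switches on myelin genes when precursors mature, while NKX6-2 acts in the layout of the myelin loops beside the node. Enzymes such as carbonic anhydrase and aspartoacylase mark the cell body, and adhesion proteins at the paranode and node fasten myelin to the axon. In striatum these cells crowd the fibre bundles that cross the tissue, so the amount of white matter in a piece of tissue sets much of their RNA. In bulk tissue fewer oligodendrocytes, less white matter in the sample and less RNA per cell cannot be told apart.

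Total counts ran from 8.36 to 9.60 M in ablated and from 8.95 to 21.1 M in control SVZ. In striatum they ran from 2.63 to 3.37 M and from 2.78 to 4.69 M, so ablated libraries were shallower as a group. Mitochondrial genes took 13.1% to 17.0% of the counts in ablated and 6.69% to 15.2% in control SVZ. In striatum they took 6.58% to 8.27% and 6.04% to 8.12%. The part of depth was not tested. Levels are given as CPM, counts per M (mega) counts of a library after TMM scaling, and are comparable between mice but not between genes. The 35 genes took 0.176% to 1.43% of the counts of an SVZ library and 0.203% to 0.547% of a striatum library. The common biological coefficient of variation was 0.939 in the SVZ and 0.251 in striatum, so a given fold change is far less certain in the SVZ. SVZ libraries P1, P2 and T1 held 4.49%, 9.88% and 9.83% of their counts on Ttr, the main transcript of choroid plexus, against at most 0.0789% in the other 12. Striatum library T4 also stood apart, with 0.142% Ttr, the highest share on the 35 genes (0.547%) and on structural myelin genes (0.680%), and the lowest summed level of 10 medium spiny neuron markers (4895 CPM, against 9485 to 12942 CPM in the other striatum libraries). Markers of cortical excitatory neurons summed to 7.61 to 636 CPM in control and 16.5 to 146 CPM in ablated striatum, and to 1.96 to 685 CPM and 4.15 to 602 CPM in the SVZ.

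The promoter stretches of 4 of the genes are shown because the results turn on them: Ermn, a gene that fell in ablated striatum, and Ugt8a, the synthase of galactosylceramide, whose ablated and control libraries did not overlap there, followed the structural myelin genes, while Zdhhc9 and Gjc3 departed from them. Ermn lies on chromosome 2 at 58045113 to 58052864, Ugt8a on chromosome 3 at 125865271 to 125938619, Zdhhc9 on chromosome X at 48171969 to 48208878 and Gjc3 on chromosome 5 at 137953461 to 137963098, all 4 on the minus strand of GRCm38 in GENCODE vM21. The sequences are from RefSeq (GRCm38.p6), read 5′ to 3′ toward the gene, and stop before the first annotated exon base: chr2:58052865-58053114 for Ermn, chr3:125938653-125938902 for Ugt8a, chrX:48208879-48208952 for Zdhhc9 and chr5:137963099-137963348 for Gjc3, all minus strand. Capitals mark matches on either strand to a SOX-type motif (ACAAAG), a MYRF-type motif (CTGGNAC) or a GC box (GGGCGG), and adjoining matches share bases.
Ermn: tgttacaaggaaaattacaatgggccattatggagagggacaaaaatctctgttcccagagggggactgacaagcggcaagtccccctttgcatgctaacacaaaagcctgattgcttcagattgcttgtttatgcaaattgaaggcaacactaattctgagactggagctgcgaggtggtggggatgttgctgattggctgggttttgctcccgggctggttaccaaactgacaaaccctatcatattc
Ugt8a: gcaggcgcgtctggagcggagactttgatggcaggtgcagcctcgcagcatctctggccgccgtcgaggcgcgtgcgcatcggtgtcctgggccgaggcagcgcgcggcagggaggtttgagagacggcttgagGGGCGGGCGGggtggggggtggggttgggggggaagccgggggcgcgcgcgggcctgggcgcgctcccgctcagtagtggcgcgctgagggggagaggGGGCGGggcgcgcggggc
Zdhhc9: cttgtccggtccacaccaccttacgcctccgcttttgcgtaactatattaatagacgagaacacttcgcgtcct
Gjc3: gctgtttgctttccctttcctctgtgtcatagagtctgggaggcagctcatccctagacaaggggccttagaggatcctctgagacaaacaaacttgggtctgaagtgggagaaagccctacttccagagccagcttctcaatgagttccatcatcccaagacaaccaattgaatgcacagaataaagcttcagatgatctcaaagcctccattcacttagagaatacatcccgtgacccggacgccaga
Only the Ugt8a stretch of these 4 held a match, with 3 GC boxes. The Zdhhc9 stretch stops after 74 bases, and 2 GC boxes lie beyond it within the 250 bases searched next, which can include exon bases. Promoters were listed for 25 of the 35 genes, and within 250 bases before any listed start the SOX-type motif was present in 6 of the 25 (24.0%, against 18.6% of 27025 genes), the MYRF-type motif in 10 (40% against 17.9%) and the GC box in 13 (52.0% against 35.4%). The 25 genes had 38 listed starts and the 27025 genes 32851, and a gene with more starts has more chances of a match. By start, the 3 motifs were present in 8, 11 and 17 of the 38, against 16.5%, 16.1% and 32.7% of all starts. A match is a run of letters, not a site shown to be bound.

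In striatum the 35 genes had a median log2 fold change (ablated over control) of -0.64, which is 64.1% of the control level, beside 0.00 for all 15419 genes tested. The range ran from -0.98 for Anln to 0.00 for Efnb3. At an unadjusted p under 0.05, 23 of the 35 were lower and 0 higher, against 5.31% and 5.19% of all genes tested. At an adjusted p under 0.05, 4 of the 35 fell, against 0.182% of all genes, and none passed p of at most 0.01 with a 2-fold change, which 0.694% of all genes did. In 6 of the 35 (Car2, Ermn, Lpar1, Qdpr, Ugt8a and Zdhhc9) all 5 ablated libraries lay below all 10 control libraries, as in 0.253% of all genes. The 10 structural myelin genes, none of which is among the 35, had a median of -0.62, with 8 lower at an unadjusted p under 0.05.

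**Figure D1:**
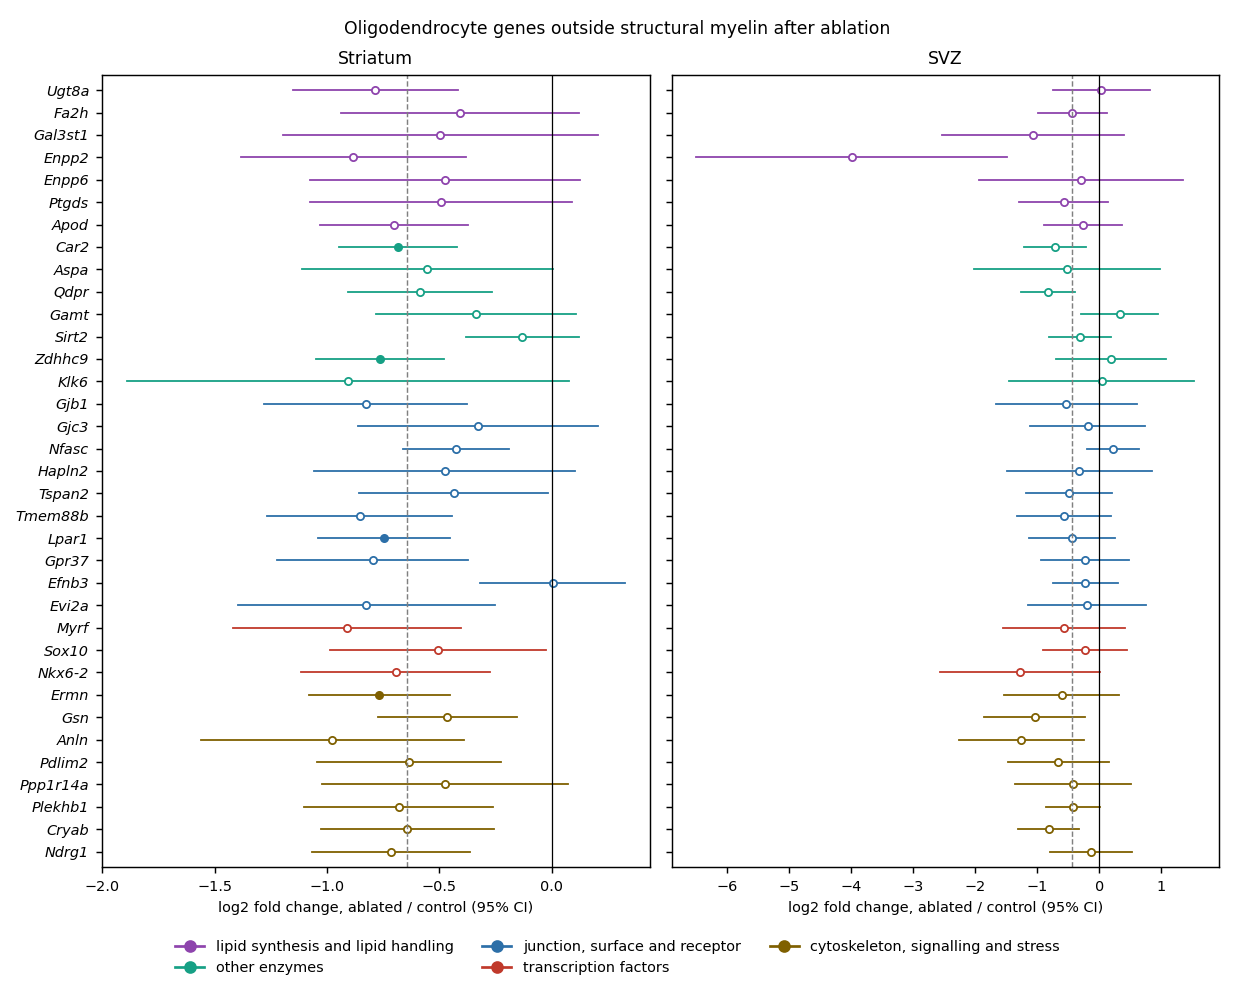
Log2 fold change of each of the 35 genes, 5 ablated against 10 control mice, in striatum (left) and SVZ (right), with 95% confidence intervals from the edgeR fit and colours for the role of the gene. Filled points have an adjusted p under 0.05, the dashed line is the median of the 35 (-0.64 and -0.43), and the axes of the panels differ in scale: the striatum points cluster at their median, while SVZ intervals are wide and Enpp2 lies far to the left at -3.99.

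Among the 7 genes of lipid synthesis and lipid handling the striatum median was -0.50, with 3 lower at an unadjusted p under 0.05 (Ugt8a, Enpp2 and Apod). Ugt8a, which makes galactosylceramide, stood at 42.6, 39.9, 36.6, 24.4 and 38.8 CPM in A1 to A5 and at 44.6 to 100 CPM in the control mice (median 58.0). The ablated and control libraries did not overlap, and the log2 fold change was -0.78 (SE 0.18, Benjamini-Hochberg adjusted p = 0.0673 in edgeR's quasi-likelihood test). Apod, a lipid-carrying lipocalin, stood at 165, 143, 118, 231 and 161 CPM in ablated and 202 to 384 CPM in control mice, with A4 inside the control range and a log2 fold change of -0.70 (SE 0.16). Enpp2, or autotaxin, which makes the lipid ligand of LPAR1, stood at 121 to 171 CPM against 160.2 to 639 CPM, with A5 inside the control range and T4 the highest (log2 fold change -0.88, SE 0.24). The other 4 did not pass: Fa2h (-0.41, SE 0.26), which hydroxylates the fatty acids of myelin galactolipids, Gal3st1 (-0.50, SE 0.34), which makes sulfatide, Enpp6 (-0.48, SE 0.29), a choline phosphodiesterase of newly formed oligodendrocytes, and Ptgds (-0.49, SE 0.28), a prostaglandin D synthase.

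The 7 other enzymes had a median of -0.59 in striatum, with 3 lower at an unadjusted p under 0.05 and 2 that fell at an adjusted p under 0.05. Car2, carbonic anhydrase, on chromosome 3 at 14886273 to 14900770, stood at 85.9, 96.7, 84.3, 102 and 89.3 CPM in A1 to A5 and at 114 to 209 CPM in control mice (median 151). All 5 ablated mice were below every control mouse, and Car2 fell to 62.2% of the control level (log2 fold change -0.68, SE 0.13, Benjamini-Hochberg adjusted p = 0.0332 in edgeR's quasi-likelihood test). Zdhhc9, a palmitoyltransferase, stood at 31.7, 35.5, 41.0, 40.5 and 44.8 CPM in ablated and 50.5 to 86.0 CPM in control mice (median 65.5). Here too the groups did not overlap, the highest control values were those of the NestinTK- GCV mice G2 and G3 (86.0 and 79.7 CPM), and Zdhhc9 fell to 58.8% (log2 fold change -0.76, SE 0.14, Benjamini-Hochberg adjusted p = 0.0244 in edgeR's quasi-likelihood test). Qdpr, which regenerates tetrahydrobiopterin, stood at 169, 189, 188, 189.6 and 191 CPM in ablated and 212 to 429.7 CPM in control mice (median 244), without overlap (log2 fold change -0.59, SE 0.15). Of its exon bases 18.6% are shared with a gene on the opposite strand, and whether reads were counted by strand is not known. Sirt2, a tubulin deacetylase, stood at 101, 116, 109, 88.4 and 109 CPM in ablated and 92.4 to 164 CPM in control mice (median 111), so all but A4 lay inside the control range (log2 fold change -0.13, 95% confidence interval -0.38 to 0.12). Aspa (-0.55, SE 0.27), which splits N-acetylaspartate, Gamt (-0.34, SE 0.22) of creatine synthesis, and the secreted protease Klk6 (-0.91, SE 0.48, with only 2 to 36 counts per library) did not pass.

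The 10 junction, surface and receptor genes had a median of -0.61 in striatum, with 7 lower at an unadjusted p under 0.05. Lpar1, a receptor of lysophosphatidic acid, on chromosome 4 at 58435255 to 58553898, stood at 53.5, 53.6, 63.6, 56.7 and 56.8 CPM in A1 to A5 and at 73.5 to 121 CPM in control mice (median 85.5). The ablated mice lay below all controls, and Lpar1 fell to 59.6% (log2 fold change -0.75, SE 0.14, Benjamini-Hochberg adjusted p = 0.0368 in edgeR's quasi-likelihood test). Tmem88b, a membrane protein gene, stood at 255, 279, 241, 187 and 431 CPM in ablated and 283 to 706 CPM in control mice (median 503), with A5 inside the control range (log2 fold change -0.85, SE 0.20). Gjb1 (connexin 32, -0.83, SE 0.22), Gpr37 (an orphan receptor, -0.80, SE 0.21), Evi2a (-0.83, SE 0.28, with 19.2% of its exon bases shared with Evi2 on the same strand), Tspan2 (a tetraspanin, -0.44, SE 0.20) and Nfasc (-0.43, SE 0.11), whose product neurofascin joins myelin to the axon at the paranode and is made by neurons too, were the other 5 with an unadjusted p under 0.05. Gjc3, or connexin 29, stood at 52.5, 49.6, 54.0, 36.8 and 44.5 CPM in ablated and 30.7 to 116 CPM in control mice (median 47.3), and the groups overlapped (-0.33, SE 0.26). Efnb3, a ligand of Eph receptors that neurons also make, stood at 131, 143, 144, 125 and 96.3 CPM against 83.5 to 185 CPM (median 124), with a log2 fold change of 0.00 (95% confidence interval -0.32 to 0.32). Hapln2, which links matrix at the node, was at -0.48 (SE 0.28).

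All 3 transcription factors were lower at an unadjusted p under 0.05 in striatum and none at an adjusted p under 0.05. Myrf stood at 11.6, 15.2, 9.24, 15.9 and 9.96 CPM in A1 to A5 and at 11.7 to 37.1 CPM in control mice (median 23.2), with a log2 fold change of -0.91 (SE 0.25). Nkx6-2 stood at 12.3, 16.7, 9.24, 13.0 and 14.6 CPM against 13.7 to 32.8 CPM (median 22.1), a log2 fold change of -0.69 (SE 0.20), and 12.9% of its exon bases are shared with Inpp5a on the opposite strand. Sox10 stood at 13.0, 29.7, 27.7, 15.3 and 22.2 CPM against 19.5 to 54.9 CPM (median 27.9), a log2 fold change of -0.50 (SE 0.23). Each of the 3 overlapped between the groups, Sox10 most, with A2 and A3 near the control median. The 10 other factors of the lineage, such as Olig1 and Olig2, had a median of -0.27, with 3 lower at an unadjusted p under 0.05, against 5.31% of all genes. Among these 10, Tcf7l2 stood at a log2 CPM of 8.40 in control mouse T4 and at 2.92 to 5.33 in the other mice.

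The 8 cytoskeletal, signalling and stress genes had a median of -0.66 in striatum, with 7 lower at an unadjusted p under 0.05. Ermn, whose product ermin is an actin-binding protein of late oligodendrocytes, stood at 51.4, 53.3, 64.3, 60.4 and 63.4 CPM in A1 to A5 and at 72.2 to 146 CPM in control mice (median 92.5). No ablated mouse reached the lowest control, and Ermn fell to 58.8% (log2 fold change -0.77, SE 0.15, Benjamini-Hochberg adjusted p = 0.0380 in edgeR's quasi-likelihood test). Ndrg1, a stress-response gene, stood at 65.1, 86.6, 51.0, 82.2 and 92.6 CPM against 78.0 to 192 CPM (median 121), with 3 ablated mice inside the control range (-0.71, SE 0.17). Anln (anillin, a septin partner, -0.98, SE 0.28), Plekhb1 (-0.68, SE 0.20), Cryab (a small heat shock protein, -0.64, SE 0.19), Pdlim2 (-0.64, SE 0.20) and Gsn (gelsolin, which cuts actin filaments, -0.46, SE 0.15) were the others with an unadjusted p under 0.05. Ppp1r14a, an inhibitor of myosin phosphatase, was at -0.48 (SE 0.27).

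The 4 adjusted calls in striatum were not stable to leaving out a mouse. None of the 35 passed when A1, A2, A3, A4, P2 or T1 was left out, and 11 passed without G2. With each mouse left out, the log2 fold change ran from -0.73 to -0.62 for Car2 and from -0.82 to -0.70 for Zdhhc9. It ran from -0.79 to -0.70 for Lpar1 and from -0.81 to -0.69 for Ermn. With T4 left out, 7 passed and the median was -0.57. Set against the 3 NestinTK- GCV mice alone, the ablated mice had a median of -0.31, with 10 adjusted calls and 16 lower at an unadjusted p under 0.05. Set against the 4 NestinTK+ PBS mice alone, in a fit of those 9 mice, no gene of the list passed after adjustment (edgeR), 24 were lower at an unadjusted p under 0.05, and the median was -0.67. The share of all genes called was not computed for these refits, so a change in count cannot be read as particular to the 35.

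**Figure D2:**
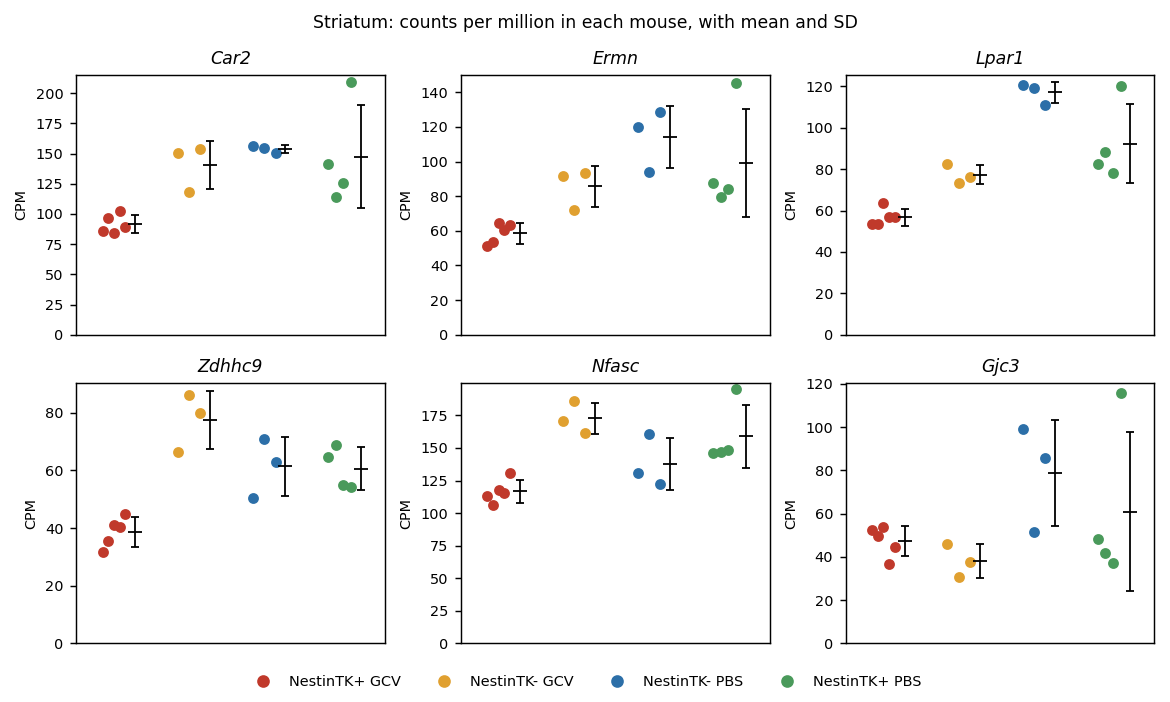
CPM of 6 genes in striatum in each mouse, by group, with the group mean and SD at the right of the points and an axis that starts at 0. Car2, Ermn, Lpar1 and Zdhhc9 were lower in all 5 ablated mice than in any control mouse, with NestinTK- GCV mice G2 and G3 highest for Zdhhc9, whereas Nfasc and Gjc3 overlapped, and Gjc3 was lowest in NestinTK- GCV mouse G2 (30.7 CPM).

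The 4 groups of genotype and treatment show where the striatal difference lies. Contrasts that follow share groups and are given side by side. Between GCV and PBS in NestinTK+ mice the 35 genes had a median log2 fold change of -0.65, all 35 were below 0, and 25 were lower at an unadjusted p under 0.05, against 5.18% of all genes. In this fit, which shares its spread over all 15 mice, Lpar1 fell (-0.70, Benjamini-Hochberg adjusted p = 0.0402 in edgeR's quasi-likelihood test), and 0.149% of all genes had an adjusted p under 0.05. Anln (-1.12), Enpp2 (-1.11) and Myrf (-1.08) passed p of at most 0.01 with a 2-fold change, which 1.35% of all genes did. Between NestinTK+ and NestinTK- mice, both under GCV, the median was -0.29, 29 were below 0, and 13 were lower, against 7.74%. In that contrast Car2 (-0.62), Nfasc (-0.57) and Zdhhc9 (-0.997) had an adjusted p under 0.05 with edgeR, as did 3.13% of all genes.

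GCV without the transgene went with lower values as well, but here and in the interaction the NestinTK- PBS mice are all of the same mouse number series. In NestinTK- mice the median of the 35 under GCV against PBS was -0.50, 33 were below 0, and 13 were lower and 1 (Nfasc, 0.33) higher at an unadjusted p under 0.05, against 9.08% and 7.05% of all genes. Fa2h stood at 17.1, 14.5 and 13.4 CPM in G1 to G3 and 36.9, 19.6 and 44.2 CPM in P1 to P3, without overlap (log2 fold change -1.16, Benjamini-Hochberg adjusted p = 0.0364 in edgeR's quasi-likelihood test), and 2.06% of all genes had an adjusted p under 0.05 there. The ablated mice, at 15.6 to 25.0 CPM, were not below G1 to G3. Gjc3 (-1.05), Anln (-1.02) and Fa2h passed p of at most 0.01 with a 2-fold change, as 2.46% of all genes did. The summed cortical neuron markers were 7.61 to 636 CPM in G1 to G3 and 8.93 to 11.9 CPM in P1 to P3, none of the 6 markers was at 0 in all ablated or all control mice, and their part in this contrast was not tested. The transgene without GCV had a median of -0.13, with 29 below 0 and 1 lower (Lpar1, -0.34), against 2.46% of all genes.

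The interaction of genotype and treatment, which is the part of the GCV difference found only with the transgene, had a median of -0.10 over the 35, with 23 below 0. Zdhhc9 (-0.98), Nfasc (-0.77) and Car2 (-0.56) were lower at an unadjusted p under 0.05, against 6.65% of all genes. Zdhhc9 stood at 38.7 CPM ± 5.14 (SD, n = 5) in NestinTK+ GCV mice and at 77.3 ± 10.1 (n = 3), 61.4 ± 10.3 (n = 3) and 60.7 ± 7.36 (n = 4) CPM in the NestinTK- mice under GCV, the NestinTK- mice under PBS and the NestinTK+ mice under PBS. Its interaction had a Benjamini-Hochberg adjusted p of 0.0465 in edgeR's quasi-likelihood test, as 0.817% of all genes did at 0.05, and that of Nfasc was 0.0634. For the other 32 the difference between the genotypes in the response to GCV did not pass an unadjusted p under 0.05, which does not show that the responses were alike.

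**Figure D3:**
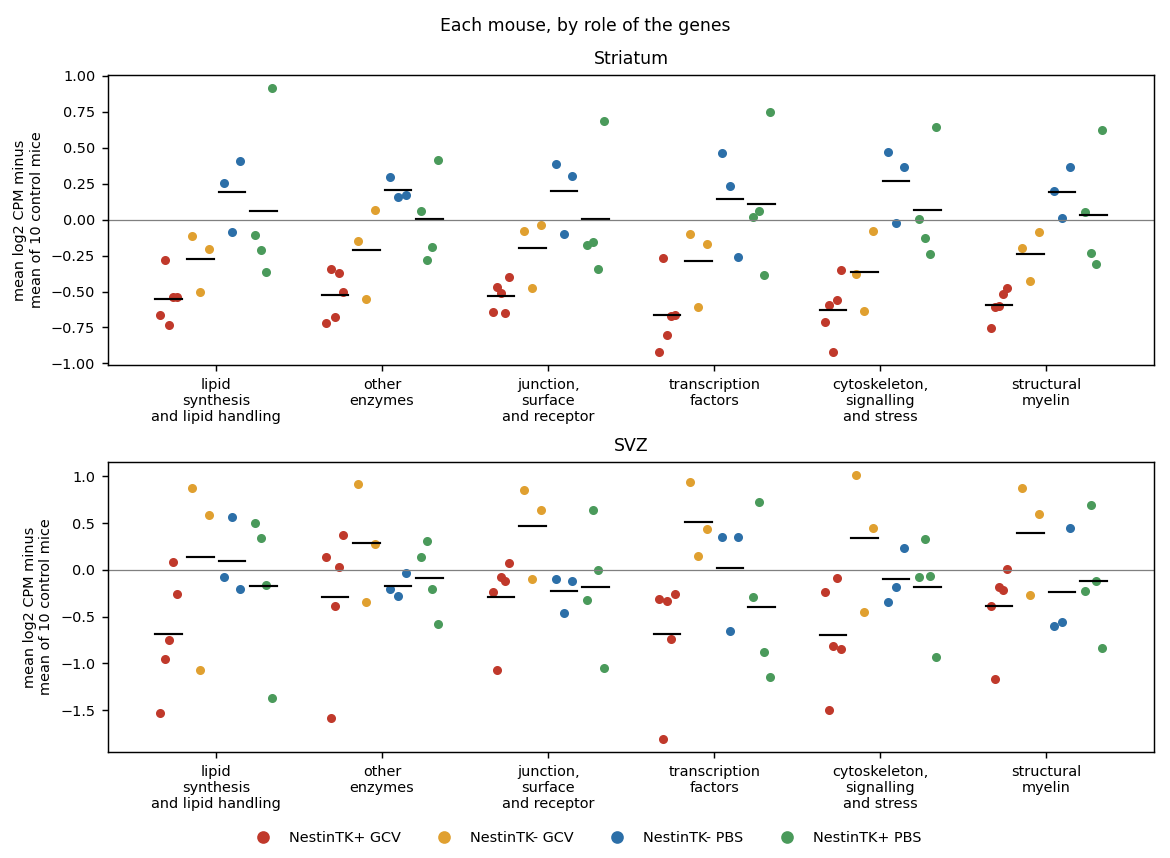
Mean log2 CPM of each role and of the 10 structural myelin genes in every mouse, minus the mean of the 10 control mice, for striatum (top) and SVZ (bottom), with points for mice and bars for group means. In striatum the ablated mice lie lowest as a group in every role, NestinTK- GCV mice lie between them and the PBS mice, and T4 is the top point, while in the SVZ the ablated and control mice overlap in every role.

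If every gene scaled with one factor, each would share one log2 fold change. In striatum the 95% confidence intervals of 33 of the 35 held the common median of -0.64, and those of Sirt2 and Efnb3, both above it, did not. That median comes from the same 35 genes, so the count is a description and not a test. The SD of the 35 log2 fold changes was 0.22, beside a median SE of 0.20. The first principal component of the 35 genes over the 15 mice took 65.0% of their variance, and 68.6% over the 10 control mice alone, so that the genes moved together among control mice too. In mean log2 CPM of the 35, T4 lay 0.67 above the control mean, and the other control mice from -0.54 (G2) to 0.37 (P1). The component was not computed without T4 or within groups.

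The mean log2 CPM of the 10 structural myelin genes served as a measure of structural myelin RNA that uses none of the 35. It was 7.17 ± 0.107 (SD, n = 5) in ablated and 7.77 ± 0.324 (n = 10) in control striatum, a difference of -0.59 (two-sided exact permutation test over 3003 splits, p = 0.00233). The ablated mice lay between 7.01 and 7.29, below the NestinTK- GCV mice at 7.34 to 7.68, the NestinTK- PBS mice at 7.78 to 8.14 and the NestinTK+ PBS mice at 7.46 to 8.39. With this index as a covariate, the median log2 fold change of the 35 was 0.03 in place of -0.64. No ablated mouse reached the index of any control mouse, so index and ablation are hard to separate. The ablated term of this fit rests on slopes carried past the range of each group. The slope of a gene on the index, where 1 means in proportion, had a median of 1.02, and its 95% confidence interval held 1 for 28 of the 35. For Ermn the slope was 0.96 (0.61 to 1.31), for Ugt8a 0.93 (0.46 to 1.40) and for Qdpr 0.99 (0.64 to 1.34). Their difference between ablated and control mice with the index in the fit was -0.17 (SE 0.14), -0.19 (SE 0.19) and 0.03 (SE 0.14).

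For the other 7 the interval did not hold 1. Slopes above 1 were those of Enpp6 (1.78, 95% confidence interval 1.11 to 2.45), Gjc3 (1.76, 1.23 to 2.29), Enpp2 (1.59, 1.18 to 2.01) and Gpr37 (1.41, 1.03 to 1.79). Slopes below 1 were those of Sirt2 (0.56, 0.20 to 0.92), Nfasc (-0.02, -0.42 to 0.37) and Zdhhc9 (-0.36, -0.83 to 0.11), and the intervals of the last 2 held 0. The library of T4, which had the highest index (8.39), held 1431 CPM of summed choroid plexus markers, against 13.0 to 52.1 CPM in the other 14, and 639 CPM of Enpp2, against 121 to 267 CPM. With T4 left out, a setting chosen after the data were seen, the slope of Enpp2 was 0.91 (0.44 to 1.39), and those of Enpp6 (1.88, 0.97 to 2.79) and Gpr37 (1.25, 0.72 to 1.77) held 1 in their intervals too. Gjc3 (1.77, 1.06 to 2.49) stayed above 1, and Sirt2 (0.32, -0.15 to 0.80), Nfasc (-0.50, -0.98 to -0.03) and Zdhhc9 (-0.29, -0.91 to 0.32) stayed below 1. The Gpr37 interval also held 1 without G2, P1, T2 or T3, that of Enpp6 without P3 and that of Sirt2 without G2. With the index in the fit, 2 of the 35 (Zdhhc9 and Nfasc) were lower and 3 (Gjc3, Enpp6 and Efnb3) higher at an unadjusted p under 0.05, against 8.55% and 8.91% of all genes. At an adjusted p under 0.05, which 1.83% of all genes reached, Zdhhc9 was lower (-0.97, SE 0.18, adjusted p = 0.0168) and Gjc3 higher (0.86, SE 0.22, Benjamini-Hochberg adjusted p = 0.0470 in edgeR's quasi-likelihood test). Neither passed when G2 was left out, and 1 of the 2 passed without A1, A2, A3, G1, G3, P2, P3, T1 or T2. Nfasc (-0.44, SE 0.16), Enpp6 (0.68, SE 0.28) and Efnb3 (0.41, SE 0.20) did not pass after adjustment. Within roles the median with the index was 0.15 for lipid genes, 0.03 for other enzymes, -0.01 for junction and surface genes, -0.25 for transcription factors and 0.03 for cytoskeletal genes.

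**Figure D4:**
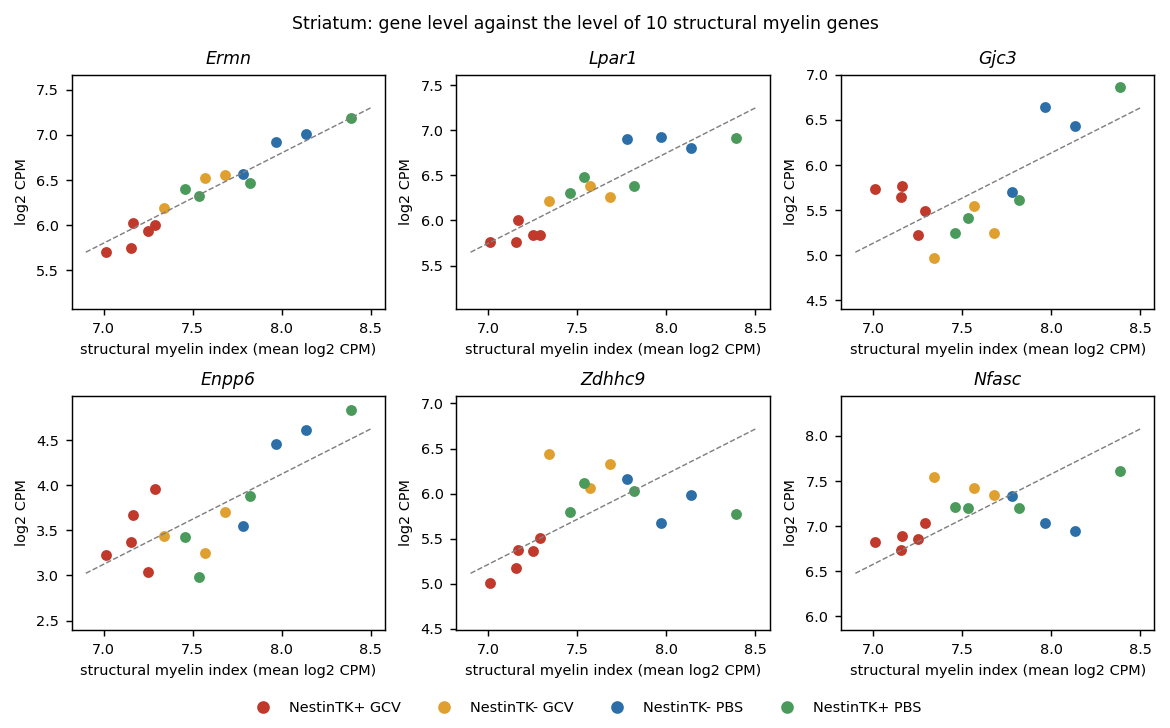
Log2 CPM of 6 genes in striatum against the mean log2 CPM of 10 structural myelin genes, with 1 point per mouse coloured by group and a dashed line of slope 1 through the mean of all points. Fitted slopes were 0.96 for Ermn, 0.72 for Lpar1, 1.76 for Gjc3, 1.78 for Enpp6, -0.36 for Zdhhc9 and -0.02 for Nfasc. They are from the fit that also holds the ablated term, so they describe mice within the ablated and control groups, not the trend over all points. For Zdhhc9 all ablated mice, which have the lowest index values, also lie below every control mouse.

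Other genes of the same pathways were measured in striatum too. The 14 other galactolipid and sphingolipid genes, which many cell types express, had a median of 0.02, with 7 below 0 and 1 lower and 1 higher at an unadjusted p under 0.05. Of the 17 cholesterol synthesis genes tested, 3 were lower and 0 higher, with a median of -0.19 and 15 below 0. The 10 other glial connexins and paranode partners had a median of -0.21, with 10 below 0 and 3 lower. Oligodendrocyte precursor markers had a median of -0.17, with 0 of 8 lower, and summed to 151 to 192 CPM in ablated and 167 to 257 CPM in control mice. Of 8 astrocyte markers 2 were lower (median -0.14). None of these lists had a gene with an adjusted p under 0.05.

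In the SVZ the 35 genes had a median log2 fold change of -0.43, or 74.0% of the control level, beside -0.03 for all 16375 genes tested. The median was -0.24 without A2, -0.59 without A4, -0.81 against NestinTK- GCV mice alone and -0.28 against NestinTK+ PBS mice alone. The library of A2 held 602 CPM of summed cortical neuron markers, against 4.15 to 16.6 CPM in the other 4 ablated mice, and 4250 CPM of medium spiny neuron markers, against 10526 to 13716 CPM, and their part was not tested. At an unadjusted p under 0.05, 6 of the 35 were lower (Anln, Car2, Cryab, Enpp2, Gsn and Qdpr) and 0 higher, against 6.09% and 3.73% of all genes. After adjustment (edgeR's quasi-likelihood test) 0 of the 35 passed, as did 0.00611% of all genes, whereas DESeq2 called 3 of the 35, with the share of all genes not computed there. Only Enpp2 passed p of at most 0.01 with a 2-fold change, which 1.59% of all genes did, and in none were the ablated and control libraries apart. The medians were -0.43 for lipid genes, -0.31 for other enzymes, -0.27 for junction and surface genes, -0.57 for transcription factors and -0.63 for cytoskeletal genes, and -0.33 for structural myelin genes.

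Enpp2 stood at 199, 147, 133, 207 and 192 CPM in A1 to A5 and at 122 to 11140.2 CPM in control mice (median 316). The 3 control libraries rich in Ttr held 5264 (P1), 11140.2 (P2) and 9797 (T1) CPM, and the other 7 held 122 to 432 CPM. Enpp2 is also a gene of choroid plexus epithelium. The log2 fold change was -3.99 (SE 1.2, Benjamini-Hochberg adjusted p = 0.347 in edgeR's quasi-likelihood test), and without those 3 libraries it was -0.51 and did not pass. All 6 choroid plexus markers were lower at an unadjusted p under 0.05 (median -6.03), and they summed to 18.5 to 236 CPM in ablated and 15.7 to 102843 CPM in control mice. The Enpp2 call also did not pass with limma-voom, against NestinTK- GCV mice alone, or without A3.

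**Figure D5:**
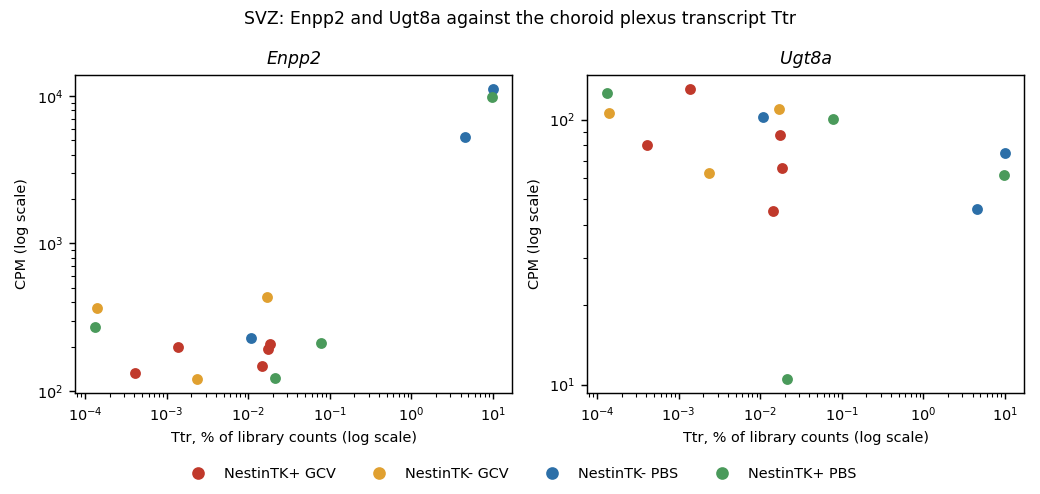
SVZ level of Enpp2 (left) and Ugt8a (right) in each mouse against the share of the library's counts on Ttr, all axes on a log scale. The 3 control libraries with over 1% Ttr are the only ones with Enpp2 above 432 CPM, and their Ugt8a values (46.2, 75.1 and 61.8 CPM) lie among those of the other mice.

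Of the other 5, Qdpr stood at 122, 71.4, 97.2, 102 and 178 CPM in ablated and 158 to 295 CPM in control SVZ (median 188), with only A5 inside the control range (log2 fold change -0.83, SE 0.21, adjusted p = 0.347 with edgeR). Car2 stood at 92.6, 103, 99.0, 190.4 and 109 CPM against 124 to 318 CPM (median 186), with A4 inside the control range (-0.72, SE 0.24, adjusted p = 0.373 with edgeR). These 2 enzymes thus had separate groups in striatum and overlapped by a single ablated mouse here. Cryab stood at 99.7, 117, 203, 151 and 192 CPM against 115 to 377 CPM (median 276, log2 fold change -0.81, SE 0.24, adjusted p = 0.347 with edgeR), and 17.0% of its exon bases are shared with Hspb2 on the opposite strand. Gsn stood at 74.9, 16.7, 61.3, 92.9 and 45.2 CPM against 39.6 to 229 CPM (median 125, -1.04, SE 0.39), and Anln at 24.0, 10.6, 6.97, 30.6 and 5.32 CPM against 10.9 to 75.3 CPM (median 35.4, -1.26, SE 0.48). Both overlapped widely between the groups.

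Plekhb1 stood at 462, 303, 246, 338 and 301 CPM in ablated and 265 to 743 CPM in control SVZ (median 428), with a log2 fold change of -0.43 (SE 0.21). Of the transcription factors, Nkx6-2 stood at 15.0, 3.48, 6.84, 3.31 and 15.1 CPM against 3.28 to 42.8 CPM (-1.28, SE 0.62), Myrf at 80.1, 10.4, 52.3, 64.1 and 96.7 CPM against 13.1 to 160.4 CPM (-0.57, SE 0.47), and Sox10 at 23.0, 32.1, 73.2, 51.6 and 21.4 CPM against 31.9 to 94.6 CPM (-0.23, SE 0.32). None of the 3 was separable from the spread between mice. The 3 highest log2 fold changes were those of Gamt (0.33, SE 0.29), Nfasc (0.22, SE 0.20) and Zdhhc9 (0.20, SE 0.42). Gamt stood at 58.9, 47.0, 76.3, 43.3 and 68.8 CPM against 18.5 to 100.3 CPM, Nfasc at 159, 162, 188, 148 and 229 CPM against 85.1 to 235 CPM, and Zdhhc9 at 59.8, 15.2, 27.3, 27.8 and 76.2 CPM against 12.7 to 98.1 CPM. All 3 overlapped wholly. The remaining 22 had log2 fold changes from -1.07 (Gal3st1) to 0.04 (Klk6), with standard errors of 0.24 to 0.79.

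The 4 groups of the SVZ gave another order than those of the striatum. The median of the 35 was 0.47 for GCV against PBS in NestinTK- mice, with 4 below 0 and 1 lower (Enpp2, -4.18) and 3 higher (Hapln2, 2.17, Apod, 0.92, and Fa2h, 0.83) at an unadjusted p under 0.05, against 4.72% and 2.93% of all genes. Enpp2 and Hapln2 passed p of at most 0.01 with a 2-fold change, as 1.06% of all genes did. It was -0.82 for NestinTK+ against NestinTK- mice under GCV, with 33 below 0 and 11 lower, against 3.27%. For GCV against PBS in NestinTK+ mice it was -0.27, with 3 lower (Cryab, Enpp2 and Qdpr) and 1 higher (Nfasc, 0.49), against 4.4% and 2.73%, and for the transgene under PBS -0.05, with 0 lower, against 0.953%. The interaction had a median of -0.94, with 32 below 0 and 4 lower (Cryab, Fa2h, Hapln2 and Qdpr), against 2.36%, and none of these contrasts had a gene of the 35 with an adjusted p under 0.05 with edgeR. Qdpr stood at 295, 209 and 237 CPM in G1 to G3 and at 158 to 252 CPM in the 7 PBS mice, and Hapln2 at 95.7, 28.4 and 24.0 CPM and 4.95 to 40.6 CPM. Summed cortical neuron markers were 12.8 to 685 CPM in G1 to G3 and 1.96 to 17.0 CPM in the PBS mice, and their part was not tested.

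In the SVZ the structural myelin index was 7.38 ± 0.460 (SD, n = 5) in ablated and 7.77 ± 0.605 (n = 10) in control mice, a difference of -0.39 (two-sided exact permutation test, p = 0.227). Left out in turn, A2 moved it most, to -0.19. Of the 35 intervals, 32 held the common median of -0.43, and those of Enpp2, Gamt and Nfasc did not. That median comes from the same 35 genes, and with a median SE of 0.37 most intervals held 0 as well. The count therefore cannot show whether the genes share 1 factor in the SVZ. The first principal component took 37.1% of the variance of the 35. Slopes on the index had a median of 0.84, and 25 of the 35 intervals held 1. The other 10 (Fa2h, Enpp2, Ptgds, Car2, Qdpr, Sirt2, Nfasc, Efnb3, Plekhb1 and Cryab) were below 1. With the index in the fit the same 6 genes had a negative sign and an unadjusted p under 0.05, against 6% of all genes, Qdpr at -0.63 (SE 0.16), Cryab at -0.57 (SE 0.19) and Car2 at -0.54 (SE 0.23), while Ermn was at -0.14 (SE 0.32) and Myrf at 0.03 (SE 0.30).

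The response of the tissues was compared within mice, on the difference SVZ minus striatum of log2 CPM. Among 14197 genes tested in both tissues, 10% differed between ablated and control mice at an unadjusted p under 0.05. Of the 35 only Nfasc did (0.68, adjusted p = 0.427, limma with Benjamini-Hochberg adjustment), with log2 fold changes of -0.43 in striatum and 0.22 in the SVZ. The median over the 35 was 0.05. In the fit of the SVZ alone the standard errors ran from 0.20 to 1.2 on the log2 scale. What size of difference the paired test could detect was not computed, so a lack of calls does not show that the responses were alike.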

How the data were processed

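RNA from the SVZ and striatum of 15 mice was sequenced as single-end reads, with SMART-Seq v4 libraries for the SVZ and QuantSeq 3′ libraries for the striatum. The authors trimmed reads (Trimmomatic 0.36, per the processing notes), aligned them with STAR 2.5.3a to mm10 and deposited raw counts per gene from featureCounts, with a strand setting not given in the sources used here. The tissues were fitted apart, since the library kits differ. Genes with a CPM over 1 in at least 3 libraries were kept, scaled by TMM and tested with edgeR 4.0.16 (quasi-likelihood, Benjamini-Hochberg over all genes tested, R 4.3.3). The 5 ablated mice were set against the 10 control mice pooled, and the 4 groups were fitted for the other contrasts and the interaction. The structural myelin index is the mean log2 CPM (prior count 2) of 10 genes of structural myelin, Mbp and Mog among them, whose single values are not reported here. Tissue responses were compared by limma 3.58.1 on differences within mice, which the mouse numbers in the labels pair. DESeq2 1.42.0, limma-voom, other filters, scalings and control groups, and leaving out each mouse, were tried. The scripts were tested on simulated data.

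The genes, lists and tests were chosen with earlier results of these data known. In each tissue, values by mouse are given for the 8 genes with the lowest p, any gene called or without overlap of the groups, the 3 with the highest log2 fold change, and Myrf, Sox10 and Nkx6-2. Values by mouse of Enpp2, Fa2h and Nfasc in striatum and of Ugt8a and Hapln2 in the SVZ were added after they were seen.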

Additional observations from a re-analysis of the deposited data

Results flagged for a closer look

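Among 90 sets of values (a gene in a group of 4 or 5 mice, or in the 10 control mice), 13 had a highest or lowest mouse far from the others. Chance gives about 1 in 20 for independent sets, but these sets share mice and hold genes that move together, so the 13 cannot be set against it. Of the 13, 7 were mouse T4. In striatum T4 was the highest of its group for Apod (log2 CPM 8.59), Qdpr (8.75) and Ermn (7.19) and of all control mice for Car2 (7.71), and in the SVZ it was the lowest of its group for Gsn (5.31) and Cryab (6.85) and of all control mice for Myrf (3.73). With T4 left out of the striatum, 7 of the 35 genes had an adjusted p under 0.05 (edgeR) in place of 4, and the median log2 fold change was -0.57 in place of -0.64. Among ablated mice, A4 was low for Ugt8a (4.64) and A1 low for Qdpr (7.41) in striatum, and in the SVZ A4 was high for Car2 (7.58) and A2 low for Myrf (3.41). In the SVZ T2 was high for Qdpr (7.98) and T3 high for Gamt (5.65) within the NestinTK+ PBS mice. The response of striatal Zdhhc9 to GCV differed between the genotypes, by -0.98 on the log2 scale (SE 0.23, edgeR interaction, adjusted p = 0.0465).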

How the results depend on the processing

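Shares of all genes called were not computed for the other settings, so changes in the counts below cannot be read as particular to the 35. The number of the 35 genes with an adjusted p under 0.05 in striatum, 4 with edgeR, was 13 with DESeq2, 9 with no filter on low counts, 10 against NestinTK- GCV mice alone, 0 against NestinTK+ PBS mice alone and 2 with the mouse number series as a covariate. It ran from 0 (without A1, A2, A3, A4, P2 or T1) to 11 (without G2) when each mouse was left out. The striatal count at p of at most 0.01 with a 2-fold change, 0, was 1 against NestinTK- GCV mice, 3 against NestinTK+ PBS mice, 1 with the series covariate and 0 to 3 with a mouse left out (3 without A5). In the SVZ the adjusted count of 0 was 3 with DESeq2. The SVZ count with a 2-fold change, 1, was 3 with DESeq2, 0 with limma-voom, 2 with no filter, 2 against NestinTK- GCV mice, 0 without the libraries over 1% Ttr, and 0 (without A3) to 3 (without A4, A5 or G2) with a mouse left out. The SVZ count of 6 lower genes was 11 against NestinTK- GCV and 3 against NestinTK+ PBS mice. With the myelin index as a covariate, the striatal count of 5 at an unadjusted p under 0.05 was 9 with an index of summed counts and 3 (without G2) to 8 (without A5), the adjusted count of 2 was 3 with the summed index and 0 (without G2) to 2 with a mouse left out, and the SVZ count of 6 was 3 (without A3 or P2) to 8. Signs reversed for SVZ Nfasc (-0.16) and striatal Gjc3 (0.29) against NestinTK- GCV mice, for striatal Efnb3 against NestinTK+ PBS mice (-0.12), for SVZ Zdhhc9 without A5 (-0.15, up to 0.50 without P3), and for striatal Efnb3 (up to 0.090 without A5) without A1 (-0.0060), A2 (-0.040), A3 (-0.042), G1 (-0.027), G2 (-0.051), G3 (-0.018), P2 (-0.037) or T2 (-0.0082). None of these signs was past the threshold, and the causes were not tested. Slopes on the index were also computed with each mouse left out, a choice made after the data were seen: the slope of striatal Enpp2, 1.59, was 0.91 without T4 and at most 1.75 (without P3), and intervals held 1 for 27 to 30 of the 35 in striatum and 24 to 27 in the SVZ. In the SVZ the interval of Fa2h held 1 without T4, that of Ptgds without P2, that of Efnb3 without G1, P1 or T4 and that of Cryab without A2, P2 or T2. The paired comparison of tissues within mice found 1 gene at an unadjusted p under 0.05, 2 with no replicate block, and 1 to 3 (3 without P3) with a mouse left out. The adjusted count there was 0 in every setting tried.

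Levels in the SVZ varied more between mice than in striatum, with a median SE of 0.37 for the 35 genes against 0.20. What size of change could be detected was not computed, so a lack of calls in the SVZ does not show a lack of change. Treatment and library numbering cannot be told apart, and no sex or batch is labelled.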
